A study of Homo sapiens with 4 samples.

Results

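The transcripts of 9 genes were followed in UMSCC74B cells, an established line of head and neck squamous cell carcinoma. They encode the 6 members of the family of phosphatidylinositol 3-kinase-related kinases (PIKKs), namely SMG1, PRKDC, ATM, ATR, MTOR and TRRAP, and 3 factors of nonsense-mediated mRNA decay, namely UPF1, UPF2 and SMG5. They were taken by name from the gene tables, which hold 29681 distinct names, and all 9 were present and passed the filter on low values among 11897 protein-coding genes tested. SMG1 belongs to both sets, since it is the PIKK of the decay pathway.

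The libraries were 2 from control cells (genotype WT in the labels, control shRNA in the methods) and 2 from cells labelled PRMT5 KD, which received shRNA against the arginine methyltransferase PRMT5. Cells of both groups were collected at 72 h, and total RNA went into a directional library kit. The labels speak of plasmid transfection and the methods of lentiviral particles. Neither says whether the 2 libraries of a group came from separate cultures, so the p-values measure only the spread between these libraries, which may be technical.

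PIKKs are very large serine/threonine kinases with long stretches of HEAT repeats ahead of a kinase domain that resembles that of lipid kinases. ATM, ATR and the catalytic subunit of DNA-dependent protein kinase (encoded by PRKDC) respond to broken or stalled DNA, MTOR couples growth to nutrients, and TRRAP is a scaffold of histone acetyltransferase complexes that has lost kinase activity. In nonsense-mediated decay, a ribosome that stops too early leaves UPF1, an RNA helicase, in contact with UPF2 and with SMG1. SMG1 phosphorylates UPF1, and SMG5 is among the proteins that bind phosphorylated UPF1 and bring in the enzymes that degrade the message.

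The kinase relation can be read in the coding sequences. The catalytic loop of PIKKs holds a run of glycine, aspartate, arginine and histidine, followed after 2 other residues by asparagine, and this pattern was found once in the reference coding sequence of SMG1, PRKDC, ATM, ATR and MTOR and not in that of TRRAP, UPF1, UPF2 or SMG5. The stretches of 45 bases around it in SMG1, ATM and ATR are given 5′ to 3′ from GENCODE release 44 (GRCh38), with capitals on the codons of these 5 residues. They are shown because the pattern sets the active kinases apart from TRRAP.
SMG1, chr16:18838603-18838647, minus strand, exon: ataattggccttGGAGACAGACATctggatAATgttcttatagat
ATM, chr11:108347287-108347331, plus strand, exon: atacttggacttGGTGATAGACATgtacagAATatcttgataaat
ATR, chr3:142459009-142459053, minus strand, exon: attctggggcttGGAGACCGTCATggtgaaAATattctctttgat
The glycine is residue 2334 in SMG1, 2869 in ATM and 2474 in ATR. The proteins were 3661 residues long for SMG1, 4128 for PRKDC, 3056 for ATM, 2644 for ATR, 2549 for MTOR and 3873 for TRRAP, against 1118 for UPF1, 1272 for UPF2 and 1016 for SMG5.

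The libraries held 52263508 to 66070664 estimated counts each, and the 9 genes had between 2634 counts (UPF2, control 1) and 57752 counts (PRKDC, control 2) per library. Ribosomal RNA took 15.3% and 14.2% of the counts in control and 26.2% and 18.0% in the libraries labelled PRMT5 KD. The PRMT5 transcript itself was at 94.3 and 84.3 CPM (counts relative to library size, with edgeR's TMM factors) in control and at 132 and 150 CPM under the PRMT5 KD label. It was therefore higher under that label, by 0.66 on the log2 scale (SE 0.12, FDR = 0.0055 by edgeR's quasi-likelihood test), and without control replicate 2 the call was lost (0.58, FDR = 0.0679). The paper reports silencing by the PRMT5 shRNA on an immunoblot, which measures protein and not RNA. Whether libraries or labels were exchanged was not tested, and every direction given here is that of the libraries as labelled. Of 6 squamous epithelial markers, KRT5 and CDH1 had fewer than 10 counts in every library, TP63 fell (-1.35, FDR = 0.0112), and the list summed to 5.94 and 6.90 CPM in control and 3.72 and 6.92 CPM under the label. The markers KRT17 (5 and 6 counts in control, 53 and 71 under the label), SFN (3 and 5 against 28 and 86) and KRT14 (0 and 0 against 11 and 22) had higher counts under the label and were too low to be tested. In every library the squamous markers were thus low beside the fibroblast markers described next. All 4 fibroblast markers (COL1A1, COL1A2, COL3A1 and PDGFRB) fell, and their sum went from 442 to 537 CPM in control to 50.7 to 66.6 CPM under the label. Of 4 leukocyte markers, CD14 fell and the other 3 had fewer than 10 counts in every library, while the list summed to 34.7 and 40.1 CPM in control and 1.09 and 1.90 CPM under the label. Of 3 endothelial markers, PECAM1 fell, and the list summed to at least 10.1 CPM in both control libraries and to 1.01 and 0.460 CPM under the label. The part of these differences in the results on the 9 genes was not tested. Fewer cells of a type and less of an RNA per cell cannot be told apart in bulk libraries.

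Levels of different genes were compared per length, as RPKM (TMM-scaled CPM per kilobase of the reference transcript). In control cells PRKDC was the most abundant of the 9 transcripts at 85.3 ± 0.727 RPKM (SD, n = 2), followed by SMG5 at 50.4 ± 3.54. ATM (31.8 ± 1.85), UPF1 (31.6 ± 4.24) and SMG1 (29.3 ± 3.11) came next, and neighbours among these 3 overlapped between libraries. MTOR was at 23.6 ± 0.816 RPKM, ATR at 16.5 ± 0.385, TRRAP at 13.3 ± 0.892 and UPF2 at 12.4 ± 0.723, and TRRAP and UPF2 overlapped. In the libraries labelled PRMT5 KD, SMG5 led at 51.5 ± 1.96 RPKM, ahead of PRKDC at 41.8 ± 3.29 and UPF1 at 36.8 ± 0.119. SMG1 (23.9 ± 1.10) and MTOR (23.6 ± 0.821) overlapped there. ATM stood at 14.7 ± 0.309 RPKM, in place 6 of the order, against place 3 in control. UPF2 (12.3 ± 0.979) and ATR (12.2 ± 0.128) overlapped, and TRRAP was lowest at 8.82 ± 0.138 RPKM.

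**Figure D1:**
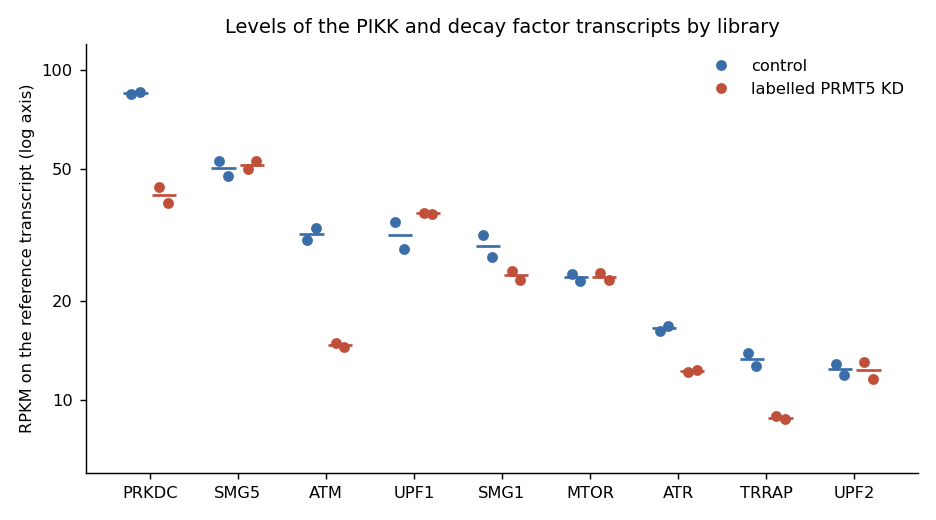
Level of each of the 9 transcripts in RPKM on the reference transcript (log axis), with 1 point per library and a bar at the mean of the 2 libraries of a group. PRKDC, ATM, ATR, TRRAP and SMG1 sit lower in both libraries labelled PRMT5 KD than in both control libraries, and UPF1 sits higher. Of these, ATR, SMG1 and UPF1 were not called in the comparison below. The share of all genes tested that separate in this way is not given. The points of MTOR, UPF2 and SMG5 overlap between groups.

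In the comparison of the libraries labelled PRMT5 KD with control, 3 of the 9 transcripts fell (FDR under 0.05 and at least 0.5 on the log2 scale) and 0 rose. Of all 11897 genes tested, 24.3% were called lower and 21.2% higher. The 3 that fell were PRKDC, ATM and TRRAP, all of them PIKKs, and 0 of the 3 decay factors UPF1, UPF2 and SMG5 were called in either direction. The median log2 fold change was -0.30 over the 9 genes and -0.01 over all genes tested. Over the 3881 genes with reference transcripts at least as long as that of SMG5, the shortest of the 9, it was -0.20.

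PRKDC (chr8:47773111-47960178, minus strand) encodes the catalytic subunit that the Ku proteins recruit to DNA ends for end joining. It was at 1141 and 1155 CPM in control and at 593 and 531 CPM under the PRMT5 KD label. The groups did not overlap, and the level fell to 0.490 of control, a log2 fold change of -1.03 (SE 0.14, FDR = 0.00167). ATM (chr11:108223044-108369102, plus strand), the kinase that answers double-strand breaks, had 394 and 428 CPM in control and 192 and 187 CPM under the label. It fell to 0.460 of control, a log2 fold change of -1.12 (SE 0.12, FDR = 0.000804), with groups that did not overlap. ATR (chr3:142449007-142578733, minus strand), the kinase of single-stranded DNA and stalled forks, had 132 and 137 CPM in control and 98.9 and 100.3 CPM under the label. Both labelled libraries were below both control libraries, and the log2 fold change of -0.43 (SE 0.10, FDR = 0.0137) passed the FDR but not the size threshold. The differences of PRKDC and ATM were past the threshold in every fit that left out a library, with log2 fold changes of -1.07 to -0.94 and -1.18 to -1.06.

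TRRAP (chr7:98877933-99050831, plus strand) was at 176 and 160 CPM in control and at 113 and 111 CPM under the PRMT5 KD label. It fell to 0.665 of control, a log2 fold change of -0.59 (SE 0.11, FDR = 0.00559), without overlap between groups. The call was lost without control replicate 1 (-0.52, FDR = 0.0554) and when libraries were scaled by total counts alone (-0.41, FDR = 0.0204). MTOR (chr1:11106535-11262556, minus strand), the catalytic subunit of the growth-controlling complexes mTORC1 and mTORC2, was at 211 and 201 CPM in control and at 211 and 201 CPM under the label. Its groups overlapped and the log2 fold change was 0.00 (SE 0.11, FDR = 0.988).

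SMG1 (chr16:18804860-18926408, minus strand) had 506 and 436 CPM in control and 396 and 371 CPM under the PRMT5 KD label. The labelled libraries were both below the control libraries, but the log2 fold change of -0.30 (SE 0.14, FDR = 0.111) did not pass. The SMG1 value is uncertain because the gene has annotated partial copies on the same chromosome. Of 15988 windows of 75 nt along the SMG1 reference transcript, 14.7% occurred unchanged in another annotated transcript, against 1.94% for TRRAP, 0.665% for PRKDC, 0.413% for ATM, 0.208% for MTOR and 0.0% for ATR, UPF1, UPF2 and SMG5. SMG1P1, a pseudogene copy, shares an unbroken run of 261 nt with SMG1 in the coding part of the transcript. The end of that run is printed below, with the base that differs in capitals, since reads from SMG1 and the copy differ there at that base alone.
SMG1, transcript positions 1974 to 2033, chr16:18876348-18877144, minus strand, 2 exons joined: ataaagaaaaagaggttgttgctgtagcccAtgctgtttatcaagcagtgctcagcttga
SMG1P1, same stretch: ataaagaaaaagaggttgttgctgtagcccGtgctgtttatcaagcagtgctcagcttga

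The tables list 5 such copies under their own or older names. SMG1P3 had 235 and 177 CPM in control and 123 and 168 CPM under the PRMT5 KD label, and SMG1P1 had 130 and 100.4 CPM against 63.4 and 83.8 CPM. SMG1P5, SMG1P2 and SMG1P7 each stayed under 26 CPM in every library. Summed, the copies came to 82.0% and 72.9% of the SMG1 count in control and to 55.6% and 78.3% under the label. With the copies added to SMG1 the log2 fold change was -0.39 (FDR = 0.0728), which did not pass either.

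**Figure D2:**
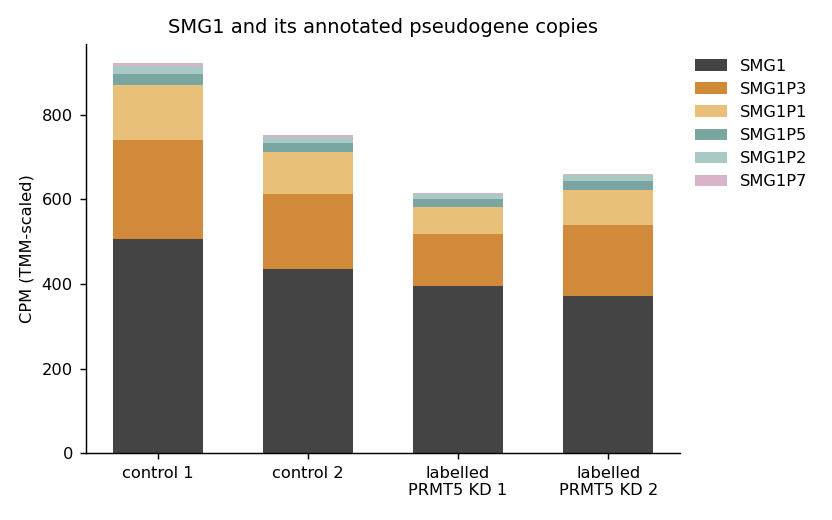
CPM of SMG1 (dark) and of its 5 annotated pseudogene copies, stacked for each of the 4 libraries. The sum of the copies was 415 and 318 CPM in control and 220 and 290 CPM under the PRMT5 KD label, beside 371 to 506 CPM of SMG1 itself.

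The other decay factors among the 9 were not called. UPF1 (chr19:18831959-18868230, plus strand), the helicase that SMG1 phosphorylates, had 184 and 152 CPM in control and 196 and 195 CPM under the label. The labelled libraries were both above control, with a log2 fold change of 0.22 (SE 0.13, FDR = 0.196) that did not pass. UPF2 (chr10:11920022-12043170, minus strand), the adaptor between UPF1 and the exon junction complex, had 66.5 and 61.3 CPM in control and 67.1 and 59.9 CPM under the label. Its log2 fold change was -0.01 (SE 0.12, FDR = 0.956), and the groups overlapped. SMG5 (chr1:156249224-156282825, minus strand) had 241 and 218 CPM in control and 229 and 241 CPM under the label, with overlapping groups and a log2 fold change of 0.03 (SE 0.12, FDR = 0.830). Permuting 2 libraries against 2 gives no two-sided p under 0.33, so the FDR of each gene depends on the edgeR model of all genes together. Groups that do not overlap are thus no evidence of change by themselves, and their share over all genes is not given.

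The transcripts are long. Their reference (MANE Select) transcripts measured 16062 nt for SMG1, 13459 nt for PRKDC, 12915 nt for ATM, 12675 nt for TRRAP, 8721 nt for MTOR, 8158 nt for ATR, 5321 nt for UPF1, 5168 nt for UPF2 and 4559 nt for SMG5, where the median gene tested had 3353 nt. All 6 PIKKs lay in the longest of 10 groups of genes by length. Most of the length of the PIKK transcripts is coding, with 12387 of 13459 nt in PRKDC, while SMG1 carries 4709 nt and ATM 3594 nt of 3′ untranslated sequence.

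Fold changes went down with length across the genome. The median log2 fold change was 0.26 in the shortest group (295 to 1284 nt) and -0.38 in the longest (7658 to 34626 nt). In the shortest group 11.8% of genes were called lower and 30.8% higher, and in the longest 42.3% were lower and 8.49% higher. Spearman's rho between log2 fold change and transcript length was -0.22 across 11897 genes, which share the 4 libraries and are not independent. Among the 3881 genes with transcripts at least as long as that of SMG5, 33.4% were called lower and 12.7% higher, so the share of 3 in 9 was near this background. Within the longest group, 17.4% of 1190 genes had a lower log2 fold change than ATM, 19.8% than PRKDC, 38.7% than TRRAP, 46.7% than ATR, 54.8% than SMG1 and 71.4% than MTOR.

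**Figure D3:**
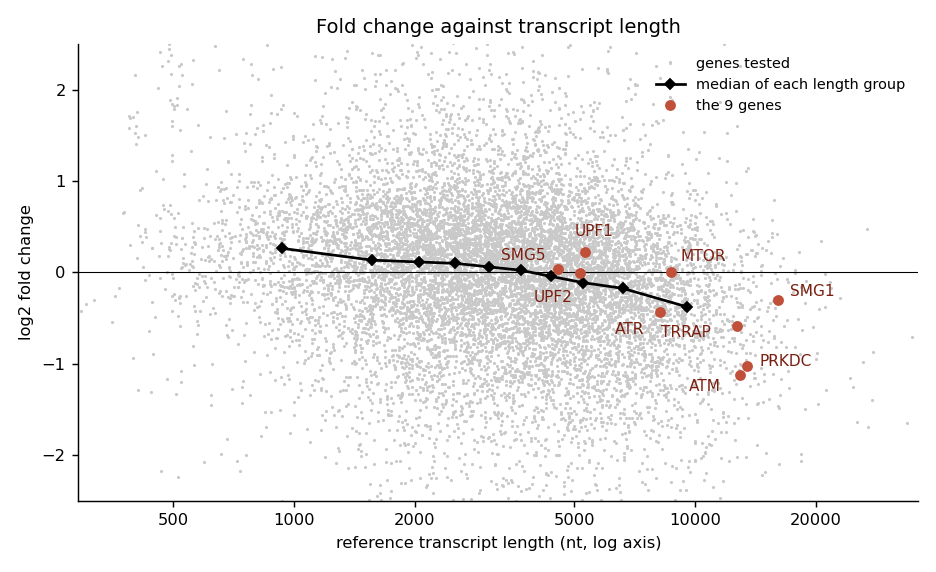
Log2 fold change (libraries labelled PRMT5 KD over control) against reference transcript length in nt (log axis). Grey points are the genes tested, of which 366 lie outside the plotted range, black diamonds the median of each of the 10 length groups, placed at the group's median length, and red points the 9 genes. The medians run from 0.26 to -0.38, with ATM (-1.12) and PRKDC (-1.03) below and MTOR (0.00) above the median of the longest group.

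The comparison was therefore also fitted with offsets for exon length and GC content in each library. All 6 PIKKs moved up, by 0.39 (MTOR) to 0.52 (ATM) on the log2 scale, while UPF2 moved by 0.01. ATM (-0.60, SE 0.12, FDR = 0.00721) and PRKDC (-0.52, SE 0.13, FDR = 0.0174) were still called lower. TRRAP (-0.10, FDR = 0.480) lost its call, and SMG1 (0.19, FDR = 0.256) and ATR (0.04, FDR = 0.750) had values above 0. MTOR stood at 0.39 (FDR = 0.0228), under the size threshold. UPF1 was called higher, at 0.57 (SE 0.14, FDR = 0.0129). In this fit 21.0% of all genes were called lower and 24.0% higher. With the length of the reference transcript in the offsets instead of all exons, PRKDC (-0.46, FDR = 0.0268) fell short of the size threshold, and ATM (-0.62, FDR = 0.00692) was the remaining member called lower. ATM was thus the member called lower in all 3 of these fits. With the length of the reference transcript UPF1 was again called higher (0.57, FDR = 0.0143). MTOR stood at 0.47 (FDR = 0.0114) there, under the size threshold. In that fit 2856 of all 11897 genes were called higher and 2527 lower.

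**Figure D4:**
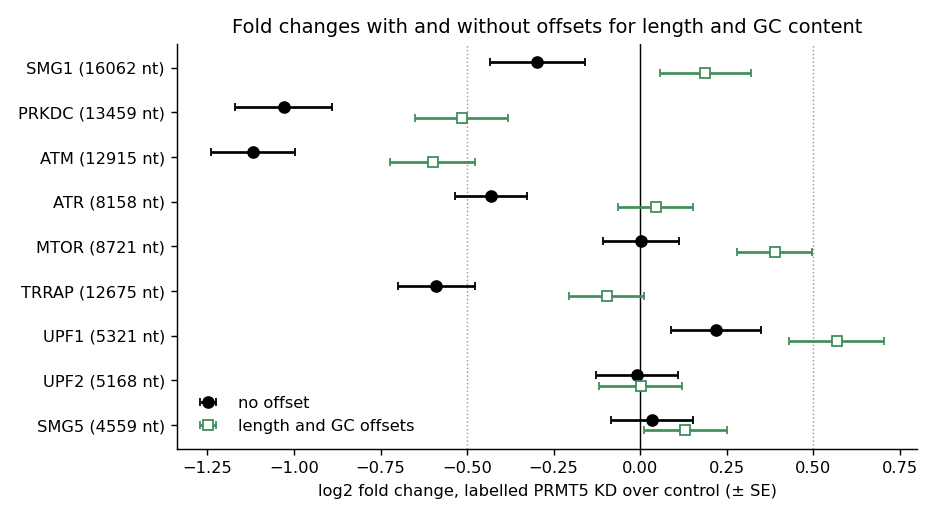
Log2 fold change ± SE of the 9 genes (libraries labelled PRMT5 KD over control), without offsets (black circles) and with offsets for length and GC content (open green squares), with dotted lines at -0.5 and 0.5. The offsets moved PRKDC from -1.03 to -0.52, ATM from -1.12 to -0.60 and UPF1 from 0.22 to 0.57.

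The proteins that bind the PIKKs were examined as a list of 26, of which 8 rose, 1 fell and 17 did not pass, beside 21.2% higher and 24.3% lower over all genes tested. With total counts alone 13 were called higher and 0 lower, where 3507 of all 11897 genes were higher and 2200 lower. Without a filter on low counts 11 were higher and 0 lower, beside 2938 higher and 3230 lower of 16838 genes. With edgeR's own filter the list again held 11 and 0, beside 3016 and 3139 of 13935 genes. Over all gene names it held 11 and 0, beside 3108 and 3145 of 14332. The number of calls in the list moved in fits that left out a library, and so did the number over all genes. The median log2 fold change was 0.33, and the median transcript length of the list was 3374 nt. ATRIP, the obligate partner of ATR, was at 10.5 and 9.02 CPM in control and at 27.5 and 32.2 CPM under the label. It rose by 1.62 on the log2 scale (SE 0.16, FDR = 0.000583), although 26.7% of its exon bases are shared with TREX1 on the same strand, so the count is uncertain. TOPBP1, which activates ATR, rose by 1.14 (SE 0.11, FDR = 0.000532), from 72.8 and 76.4 CPM to 166 and 163 CPM. The difference between ATRIP and ATR, which was at -0.43, was not tested.

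Of the MRE11-RAD50-NBN complex that brings ATM to breaks, MRE11 and NBN rose and RAD50 fell. MRE11 had 26.4 and 25.1 CPM in control and 44.7 and 51.5 CPM under the label, a log2 fold change of 0.90 (SE 0.13, FDR = 0.00185). NBN had 94.2 and 86.8 CPM against 142 and 172 CPM, a log2 fold change of 0.79 (SE 0.13, FDR = 0.0035) that did not pass without control replicate 2 (0.74, FDR = 0.0515). RAD50, whose reference transcript has 8272 nt, had 182 and 182 CPM against 142 and 109 CPM. Its log2 fold change of -0.53 (SE 0.15, FDR = 0.0242) lost the call with the length and GC offsets (-0.28, FDR = 0.141). It was also lost with total counts alone (-0.36, FDR = 0.0598), without a filter on low counts (-0.48), with edgeR's own filter (-0.47) and over all gene names (-0.45), and without control replicate 1 (FDR = 0.117), control replicate 2 (FDR = 0.128) or PRMT5 KD replicate 2 (FDR = 0.0507). The RAD50 count is uncertain, since 76.9% of its exon bases lie in another annotated protein-coding gene model on the same strand.

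The Ku subunits that bind PRKDC's product were not called. XRCC5 had 290 and 329 CPM in control and 348 and 349 CPM under the label (log2 fold change 0.17, FDR = 0.290). XRCC6 had 299.6 and 288 CPM against 378 and 393 CPM, with a log2 fold change of 0.39 (FDR = 0.0309) that passed the FDR alone. With total counts alone XRCC6 was called higher (0.57, FDR = 0.00789).

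RPTOR, RICTOR and MLST8, which form complexes with MTOR, were not called. RPTOR of mTORC1 had a log2 fold change of 0.03 (FDR = 0.856), RICTOR of mTORC2 -0.09 (FDR = 0.564) and MLST8 of both 0.20 (FDR = 0.228). EP400, which works with TRRAP in the TIP60 complex, was at -0.26 (FDR = 0.147). Of TELO2, TTI1 and TTI2, a co-chaperone complex that helps new PIKKs fold, TELO2 and TTI1 rose. Other co-chaperones in the list of partners are not described here. TELO2 had 30.9 and 31.3 CPM in control and 53.6 and 62.5 CPM under the label, a rise of 0.90 on the log2 scale (SE 0.12, FDR = 0.00176). TTI1 had 35.1 and 31.8 CPM against 55.5 and 68.1 CPM, a rise of 0.89 (SE 0.14, FDR = 0.00296). TTI2, their partner in the same complex, had 17.9 and 17.7 CPM against 23.9 and 25.5 CPM, and its 0.47 (FDR = 0.0195) was under the size threshold, but passed without PRMT5 KD replicate 1 (0.56, FDR = 0.00843). TTI2 was also called higher with total counts alone (0.65), without a filter on low counts (0.53), with edgeR's own filter (0.54) and over all gene names (0.55).

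Of 20 other factors of nonsense-mediated decay, 6 rose, 1 fell and 13 did not pass, against shares of 21.2% higher and 24.3% lower in the whole comparison, and the median log2 fold change was 0.28. Without control replicate 2 fewer of the 20 were called, and fewer over all genes as well. Among those that did not pass, SMG6, the endonuclease of the pathway, was at -0.09 (FDR = 0.493), and SMG8 and SMG9, which hold SMG1 in check, were at 0.28 (FDR = 0.127) and 0.04 (FDR = 0.806). UPF3A and UPF3B, which link UPF2 to exon junctions, were at 0.10 (FDR = 0.552) and -0.05 (FDR = 0.829).

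The 3 decay factors with the strongest rise were PNRC2, MAGOH and RNPS1. PNRC2, an adaptor between UPF1 and the decapping enzyme, had 52.0 and 46.7 CPM in control and 118 and 104 CPM under the label, a rise of 1.17 on the log2 scale (SE 0.12, FDR = 0.000766). MAGOH, a core subunit of the exon junction complex, had 3.26 and 3.16 CPM against 6.18 and 6.53 CPM (log2 fold change 0.98, FDR = 0.00688), and reads may be split between it and its near-identical copy MAGOHB. The call was lost without control replicate 1 (1.01, FDR = 0.0596) or 2 (0.96, FDR = 0.0732). With the length and GC offsets MAGOH was at 0.58 (FDR = 0.0465), and the call was lost when a term for the replicate number (replicate block) was added to them (0.58, FDR = 0.0832) and with transcript-length offsets (0.43, FDR = 0.115). RNPS1, a peripheral protein of the same complex, had 91.6 and 79.5 CPM against 168 and 158 CPM (log2 fold change 0.93, FDR = 0.00146). NBAS, which is needed in decay and in Golgi-to-endoplasmic-reticulum transport, was the factor that fell, from 209 and 214 CPM to 92.6 and 83.8 CPM (log2 fold change -1.26, SE 0.11, FDR = 0.000504). Its call held with the length and GC offsets (-0.80, FDR = 0.00161).

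Of 14 substrates of the kinases, 7 rose, 2 fell and 5 did not pass, where 21.2% of all genes tested were higher and 24.3% lower, and the median log2 fold change was 0.54. BRCA1, a repair factor phosphorylated by ATM and ATR, went from 35.4 and 26.9 CPM to 133 and 128 CPM, a rise of 2.07 on the log2 scale (SE 0.16, FDR = 0.000348). H2AX, the histone whose phosphorylation marks breaks, went from 21.5 and 21.0 CPM to 87.1 and 86.9 CPM, a rise of 2.04 (SE 0.11, FDR = 0.000206). RPA2, a subunit of the single-strand binding complex, went from 16.5 and 16.5 CPM to 45.6 and 46.6 CPM, a rise of 1.48 (SE 0.12, FDR = 0.000361). The 2 that fell were TFEB (-1.32, FDR = 0.0126) and ULK1 (-0.86, FDR = 0.00166), targets of MTOR in lysosome and autophagy control. TFEB, at 3.79 and 5.28 CPM in control and 1.45 and 2.20 CPM under the label, lost its call without control replicate 2 (-1.05, FDR = 0.120). ULK1 was at -0.51 (FDR = 0.0086) with the length and GC offsets and lost its call with transcript-length offsets (-0.46, FDR = 0.0127). These are transcript levels, and phosphorylation was not measured.

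A last list held genes whose transcripts are known to be removed by nonsense-mediated decay, wholly or in an isoform. Of these 16, 4 rose, 1 fell and 11 did not pass, with a median log2 fold change of 0.04 beside -0.01 for all genes, of which 21.2% were higher and 24.3% lower. GADD45B, a stress-response gene, went from 8.67 and 7.30 CPM to 16.8 and 16.7 CPM (log2 fold change 1.07, FDR = 0.00207). BAG1, a co-chaperone, rose by 0.89 (FDR = 0.00209) and SRSF3, a splicing factor that makes a decay-prone isoform of its own message, by 0.77 (FDR = 0.00283). PLXNA1, a semaphorin receptor, was the 1 that fell (-0.57, FDR = 0.011). Its call was lost with the length and GC offsets (-0.11, FDR = 0.505), with total counts alone (-0.39) and over all gene names (-0.49). Without control replicate 2 PLXNA1 was at -0.48 and without PRMT5 KD replicate 1 at -0.498, both under the size threshold. Gene counts do not part decay-prone isoforms from the others.

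**Figure D5:**
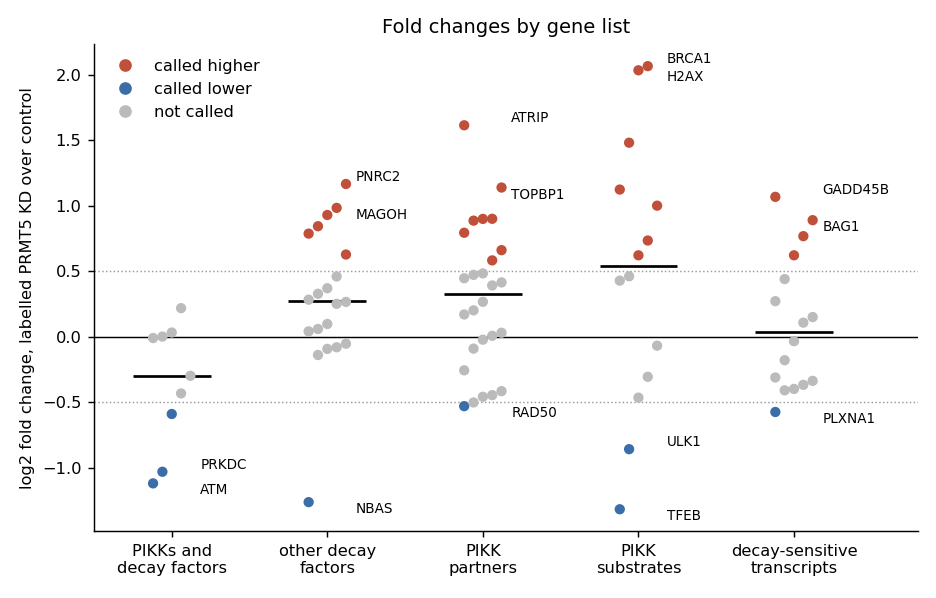
Log2 fold change (libraries labelled PRMT5 KD over control) of the 9 genes and of the 4 lists around them, 1 point per gene, coloured by call, with a black bar at the median and dotted lines at -0.5 and 0.5. The medians were -0.30 for the 9 genes, 0.28 for other decay factors, 0.33 for PIKK partners, 0.54 for substrates and 0.04 for decay-sensitive transcripts. Over all genes with transcripts at least as long as that of SMG5, not drawn here, the median was -0.20.

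With the length and GC offsets, 24.0% of all genes tested were called higher and 21.0% lower. In that fit the 20 other decay factors held 8 genes called higher and 1 lower, and the 26 partners 9 and 0. The 14 substrates held 8 and 2, and the 16 decay-sensitive transcripts 4 and 0. The genes gained included XRN1, the exonuclease that degrades decapped messages (0.72, FDR = 0.00492), and DCP2, the decapping enzyme itself (0.57, FDR = 0.00813), both named after their values were seen.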

How the data were processed

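RNA-seq of 2 control and 2 PRMT5 KD libraries was analysed. The authors deposited expected counts per gene and library, that is estimated counts with decimals that they did not normalize. The labels list FastQC, Trim Galore, STAR, Salmon and DESeq2 on GRCh38, whereas the paper's methods describe counting of unique reads on protein-coding genes, so the step that made the counts is uncertain. Gene names that had become calendar dates (0.150% to 0.161% of counts) were dropped. Rows with the same name were summed and counts were rounded. Protein-coding genes that reached 0.5 RPKM in both control or both PRMT5 KD libraries were tested. For this filter, RPKM was computed on the union of all exons and on protein-coding totals, without TMM factors. The genes went into edgeR 4.0.16 (quasi-likelihood, robust, TMM, Benjamini-Hochberg FDR) in R 4.3.3. Calls were made at FDR below 0.05 with a log2 fold change of 0.5 or more in size, and the SE was computed as the fold change divided by the root of F. Alternatives were DESeq2 1.42.0, other scalings and filters, splines of length and GC content with 4 degrees of freedom, a replicate term, and each library left out. Some items of the lists, and the values that need them, are not reported here. The gene lists and members were chosen with earlier results of these data known. The genes named are the 9, PRMT5, their direct partners, and, per list, the 3 calls with the strongest rise and the 3 with the strongest fall. Coordinates and transcripts are from GENCODE release 44 (GRCh38).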

Additional observations from a re-analysis of the deposited data

How the results depend on the processing

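Values are log2 fold changes unless counts are named. With all 4 libraries, 3 of the 9 genes were called, all lower, or 2, both lower, with total counts alone or a size threshold of 1. With length and GC offsets the 3 called were 2 lower and 1 higher. With transcript-length offsets 1 was lower and 1 higher. ATM was called lower under every alternative, and PRKDC under all but the transcript-length offsets. The replicate block gave 5190 calls over all genes against 5416 (2403 higher and 2787 lower) and changed no call among the genes named. Deviations of same-numbered libraries correlated at -0.10, so the numbers were not taken as pairs. A crossed pairing, chosen after seeing the data like the transcript-length offsets, gave 5483 calls. Total counts alone moved the median of all genes to 0.17, with 3507 calls higher and 2200 lower. A size threshold of 1 left 2561 calls, and fits without control replicate 2 left 3106.

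The median over the 9 genes was -0.12 with total counts alone, -0.24 without a filter on low counts, -0.23 with edgeR's own filter, -0.22 over all gene names, 0.045 with length and GC offsets (0.045 with the replicate block as well) and 0.13 with transcript-length offsets. Leaving out libraries moved it from -0.40 (without control replicate 2) to -0.18 (without control replicate 1). In such fits the lone library of a group is assumed to vary like the other group. They gave 2 to 3 calls among the 9 genes, 4 to 8 among other decay factors (4 without control replicate 2), 5 to 14 among partners (5 without control replicate 2, 14 without PRMT5 KD replicate 1), 7 to 10 among substrates and 4 to 7 among decay-sensitive transcripts. With a size threshold of 1 there were 2 calls among other decay factors, 2 among partners, 6 among substrates and 1 among decay-sensitive transcripts. Over all genes there were 2561, and PRMT5 (0.66) was not called. PRMT5 ran from 0.57 to 0.78 without each library.

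Changes of sign arose for genes that were not called and, with transcript-length offsets, also for TRRAP and PLXNA1, which were called. With total counts alone UPF2 was at 0.17, UPF3B at 0.12, SMG6 at 0.088 and RICTOR at 0.087. UPF2 and UPF3B were at 0.045 and 0.0011 without a filter on low counts, at 0.055 and 0.011 with edgeR's own filter, and at 0.07 and 0.027 over all gene names. With length and GC offsets SMG1 was at 0.19, ATR at 0.045, UPF2 at 0.0009, SMG6 at 0.25, RICTOR at 0.19 and EP400 at 0.24. With the replicate block added these were 0.19 for SMG1, 0.045 for ATR, 0.25 for SMG6, 0.20 for RICTOR and 0.24 for EP400. With transcript-length offsets SMG1 was at 0.33, UPF2 at 0.13, SMG6 at 0.24, RICTOR at 0.26 and EP400 at 0.39, and TRRAP (0.029) and PLXNA1 (0.059), called lower in the comparison as fitted, changed sign. Without each library in turn MTOR ran from -0.033 to 0.045, UPF2 from -0.068 to 0.077, SMG5 from -0.037 to 0.11, UPF3B from -0.25 to 0.17, SMG9 from -0.085 to 0.18, RPTOR from -0.054 to 0.15 and RICTOR from -0.19 to 0.019. The cause of these shifts was not tested.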
